A study of Saccharomyces cerevisiae with 12 samples.

Results

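The DNA replication machinery of budding yeast (Saccharomyces cerevisiae) is described here as 48 genes taken by name from a fixed list. The list covers the recognition of origins, the replicative helicase, the factors that fire origins, the 3 replicative polymerases, the sliding clamp and its loader, replication protein A, Okazaki fragment maturation and fork protection. All 48 were measured, each by 1 probe set, among 5449 genes with a signal on Affymetrix yeast arrays. The study asked how cells with and without the kinase Slt2 respond to sodium arsenate, a toxic analogue of phosphate. It holds 12 arrays in 4 groups of 3: slt2 deficient cells with 100 µM sodium arsenate for 2 h, untreated slt2 deficient cells, wild-type cells with the same arsenate treatment, and untreated wild-type cells. All groups share the BY4741 background, a haploid laboratory strain with deletions in several marker genes, and exponential growth in rich YEPD medium. Treated cells were also 2 h later in culture, so arsenate and culture time cannot be told apart. The design text calls the replicates independent but names no separate cultures. The p-values then cover only the variation among these arrays, and that variation may be technical.

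Replication starts at origins bound by the origin recognition complex, where Cdc6 helps to load the ring-shaped Mcm2-7 helicase in G1. At the start of S phase, kinases and the factors Sld3, Sld2 and Dpb11 bring in Cdc45 and the GINS complex, the helicase becomes active, and polymerase alpha, epsilon and delta copy the strands. In budding yeast many of these genes are transcribed in waves: a large group that includes POL1, POL30 and CDC9 peaks at the passage from G1 to S phase through the factor MBF, while CDC6 and the MCM genes peak earlier, near the end of mitosis. In bulk RNA of a culture, fewer cells in a given phase and less RNA per cell cannot be told apart.

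Signals are on a log2 scale, so that a difference of 1 is a doubling, and they are compared between arrays for 1 gene at a time and never between genes. SLT2 itself checked the genotypes, with 5.22 to 5.81 on the 6 slt2 arrays and 10.66 to 11.01 on the 6 wild-type arrays. The marker genes LEU2, URA3 and MET17, deleted in this strain, gave at most 5.47 on any array, and the lowest value of any replication gene was 7.71. BY4741 is of mating type a, and the 5 marker genes of a cells lay at 10.56 or above on every array. The slt2 replicates correlated at 0.996 to 0.998 over all genes. Among wild-type arrays, arsenate array 1 stood apart, with correlations of 0.672 and 0.779 to its replicates. Arsenate array 2 and untreated array 2 had the highest difference between the 3' and 5' probe sets of 7 control transcripts, a measure of RNA quality, at 1.79 and 1.59 against 0.92 to 1.17 on the other 10 arrays. Wild-type results are therefore given array by array, and also without these 3 arrays.

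No replication gene passed the test in any of 6 comparisons. The test was limma, a linear model fitted across all 5449 genes with Benjamini-Hochberg adjustment at 0.05. Few of all genes passed either: 2.46% for arsenate in the slt2 arrays alone, and 0.0367% or fewer in each other comparison. The largest differences lay in 1 array. On wild-type arsenate array 1 the median of the 48 genes lay 0.80 below the untreated wild-type mean, on array 2 it lay 0.20 below, and on array 3 it lay 0.06 above. The same medians over all genes were 0.18, -0.06 and 0.04. In slt2 cells the 48 genes stayed close to their untreated level: the fitted arsenate effects ran from -0.25 to 0.23, with a median of -0.03 against 0.03 over all genes.

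**Figure D1:**
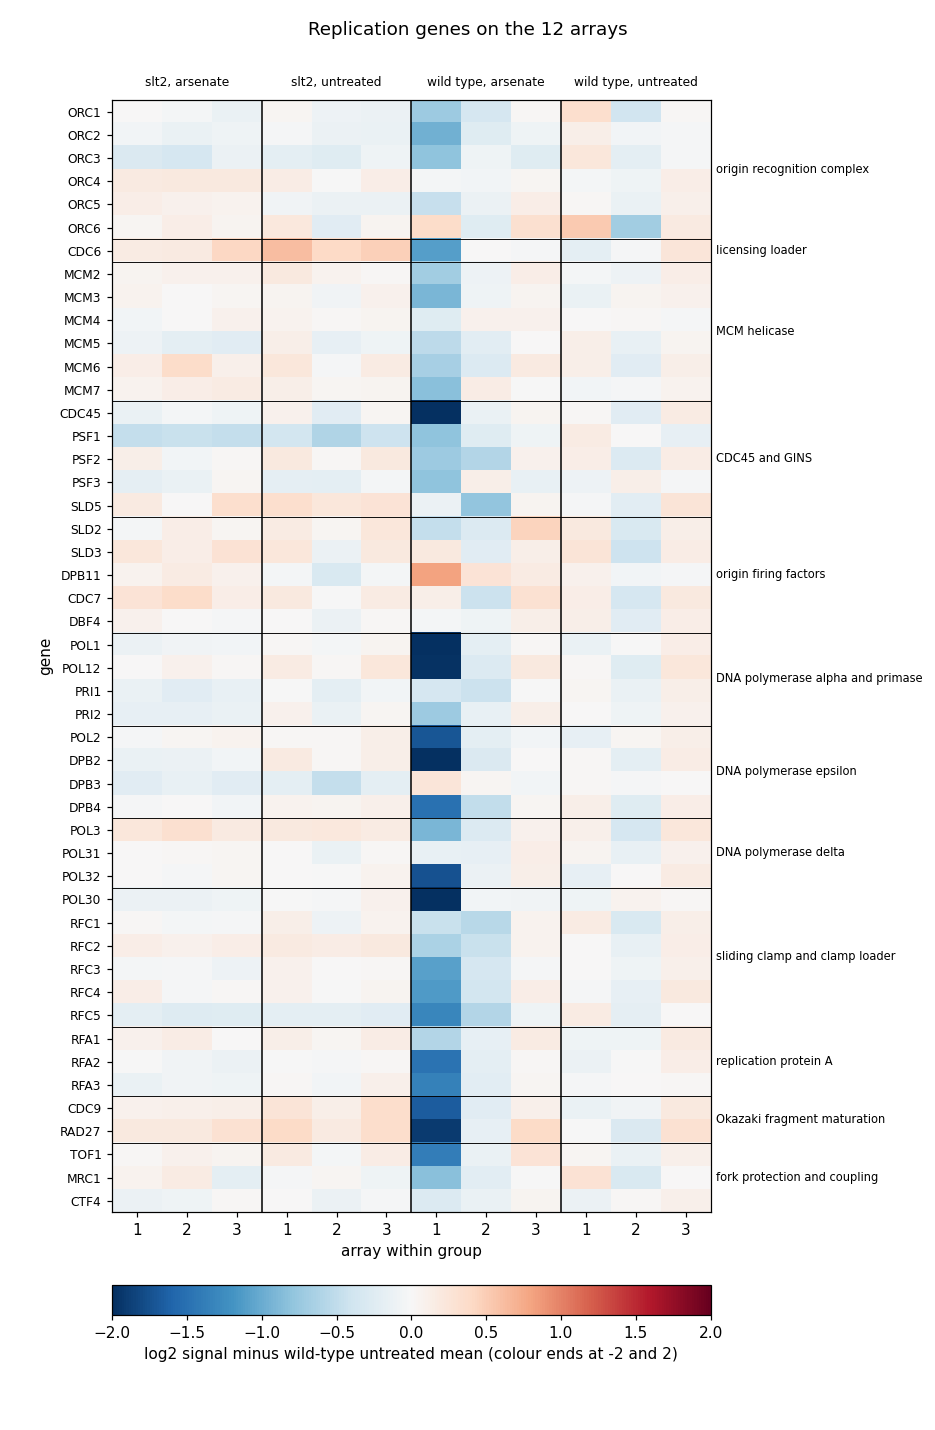
Log2 signal of each of the 48 replication genes (rows, grouped by role) on each of the 12 arrays (columns, in 4 groups of 3), minus the mean of the 3 untreated wild-type arrays, in colour from -2 to 2. Wild-type arsenate array 1 is the dark column, and CDC45, POL1, DPB2 and POL30 lie past the blue end of the scale there.

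Wild-type arsenate array 1 was low for many of the genes, and the size of the shift differed between roles. On it 17 of the 48 genes (35.4%) lay at least 1 log2 unit below the untreated mean, against 18.9% of all genes. These were 4 of the 6 genes of the clamp and its loader, 3 of 4 for polymerase epsilon, 2 of 4 for polymerase alpha and primase, 2 of 3 for replication protein A, both Okazaki maturation genes, and CDC6, CDC45, POL32 and TOF1. None of the 6 origin recognition genes, the 6 MCM genes or the 5 firing factors was among them. That split depends on the cutoff, because ORC2 and MCM3 had shifts of -0.97 and -0.92. All 6 MCM genes, 4 of the 6 origin recognition genes and 1 of the 5 firing factors lay below every untreated array on array 1. Counted by overlap, 40 of 48 genes (83.3%) lay below every untreated array on array 1, against 36.4% of all genes. On array 2 the count was 26 (54.2%, against 34.7% of all genes), and on array 3 it was 4 (8.33%, against 9.49%).

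The median shift of each role on array 1 was -1.79 for Okazaki fragment maturation, -1.60 for polymerase epsilon, -1.36 for polymerase alpha and primase, -1.35 for replication protein A, -1.11 for the clamp and its loader and -1.10 for CDC6 alone. It was -0.91 for polymerase delta, -0.83 for fork protection, -0.80 for CDC45 and GINS, -0.67 for the MCM helicase, -0.59 for origin recognition and 0.12 for the firing factors. On array 3 the same medians lay between -0.02 and 0.25. Array 1 also held the largest shift of 2 lists outside replication: the median shift from the untreated mean was 4.05 for 15 general stress genes and -3.66 for 15 ribosome biogenesis genes. On array 2 these were 2.82 and -0.61, and on array 3 they were -0.06 and 0.08. The stress list was also raised on untreated array 2, at 1.32 above the mean of its own group, where the replication genes had a median of -0.14. The difference between 3' and 5' control probe sets was 0.92 on arsenate array 1, the lowest of the 12 arrays. It was 1.79 on arsenate array 2 and 1.05 on arsenate array 3. The part of the stress and ribosome genes, and of RNA quality, in the replication values was not tested.

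**Figure D2:**
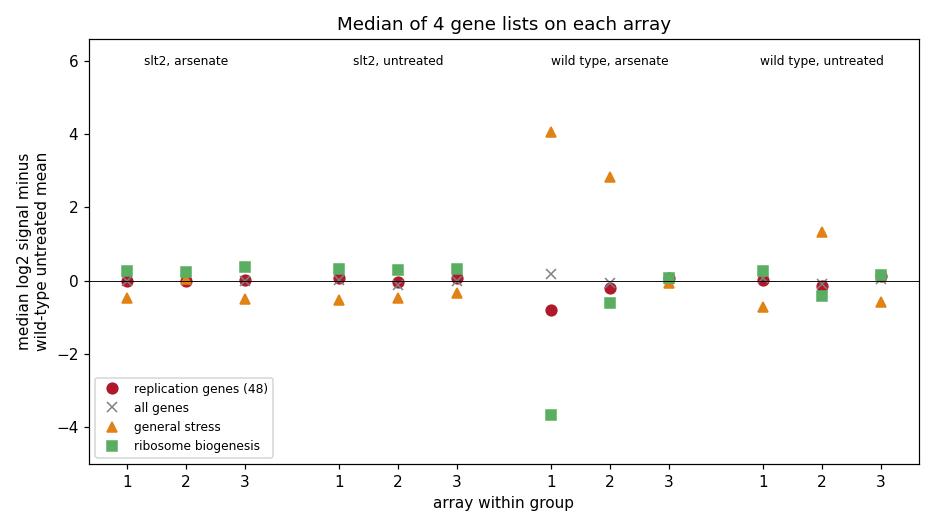
Median log2 signal of the 48 replication genes, all 5449 genes, 15 general stress genes and 15 ribosome biogenesis genes on each of the 12 arrays (columns, in 4 groups of 3), minus the mean of the untreated wild-type arrays. The stress and ribosome medians lie far apart on wild-type arsenate array 1 (4.05 and -3.66), on array 2 (2.82 and -0.61) and on untreated wild-type array 2 (1.32 and -0.43), and closest on wild-type arsenate array 3 (-0.06 and 0.08). On the 6 slt2 arrays the stress medians lie between -0.53 and 0.04 and the ribosome medians between 0.25 and 0.37.

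**Figure D3:**
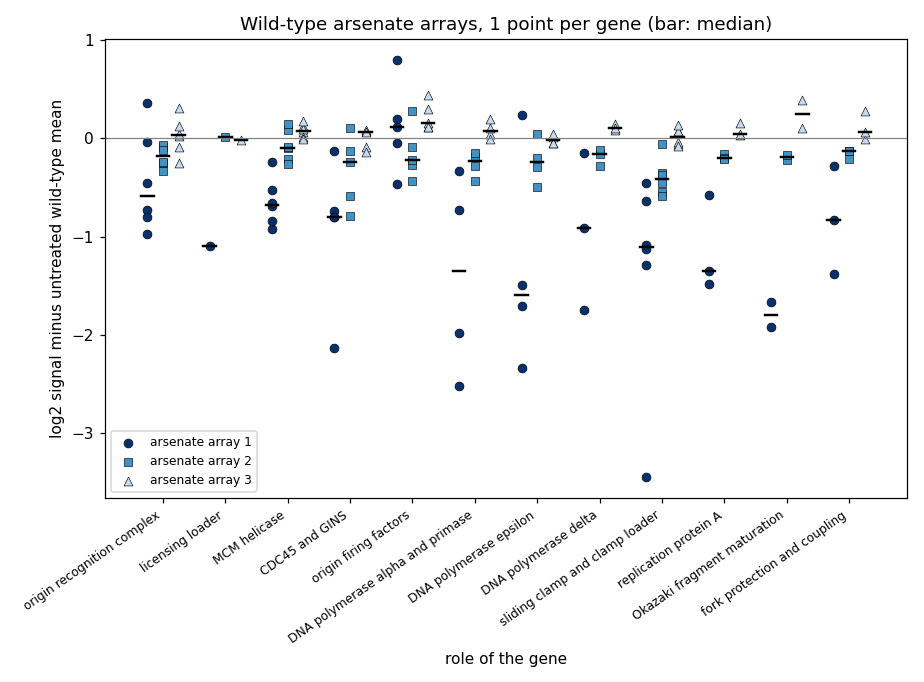
Log2 signal minus the untreated wild-type mean on the 3 wild-type arsenate arrays, with 1 point per gene, 1 marker shape per array, and a bar at the median of each of the 12 roles. Points of array 1 reach -3.45 in the clamp group, while the medians of array 3 lie between -0.02 and 0.25.

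Over the 3 wild-type arsenate arrays, the fitted arsenate effect was below 0 for 44 of 48 replication genes, with a median of -0.34, against 44.8% of all genes below 0 and a median of 0.06. No member was called, and 1 of all genes was (0.0184%). At an unadjusted p under 0.05 there were 4 members (8.33%), namely ORC2, RFC3 and RFC5 below 0 and DPB11 above it, against 12.8% of all genes. The groups did not overlap for 1 member with higher signal, DPB11, and 1 with lower signal, ORC2, against 5.65% and 2.92% of all genes. Without array 1 the median of the members was -0.05, and on array 3 alone, without the 3 arrays named above, it was -0.01. Leaving out array 3 in its place gave 9 calls of lower signal (18.8% of the members, 14.6% of all genes) and 1 of higher signal (14.9% of all genes). These 9 were RFC1, RFC2, RFC3, RFC4, RFC5, PSF2, DPB4, ORC2 and PRI1, with adjusted p from 0.0233 to 0.0451, and the gene with higher signal was DPB11. Whether any member was called in wild type thus rested on which arrays were kept.

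The 6 genes of the origin recognition complex had median shifts of -0.59, -0.18 and 0.03 on wild-type arsenate arrays 1, 2 and 3. ORC2, a subunit of its core, had 9.89, 10.60 and 10.76 with arsenate against 10.96, 10.79 and 10.82 in untreated wild type. All 3 treated arrays lay below all 3 untreated ones, most of all array 1, and the fitted effect was -0.44 ± 0.20 (SE, adjusted p = 0.299). ORC4, another core subunit, had 9.83, 9.81 and 9.91 with arsenate against 9.83, 9.79 and 10.00 without, so that its values interleaved. ORC6 varied most among untreated wild-type arrays, at 9.03, 7.80 and 8.68, and its arsenate values of 8.87, 8.26 and 8.82 lay inside that range.

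CDC6, the loader of the helicase, had 7.89, 9.00 and 8.97 in treated and 8.79, 8.96 and 9.23 in untreated wild type. Only array 1 lay outside the untreated range, and the fitted effect was -0.37 ± 0.27 (SE, adjusted p = 0.355). Of the 6 subunits of the helicase ring, MCM3 had the largest fitted effect, with 9.77, 10.60 and 10.75 against 10.56, 10.74 and 10.77 in untreated cells, an effect of -0.31 ± 0.22 (adjusted p = 0.342). MCM5 had 9.42, 9.74 and 9.96 against 10.06, 9.80 and 10.00. MCM4, named after its values were seen, had a shift of only -0.24 on array 1, with 10.39, 10.72 and 10.72 against 10.63, 10.66 and 10.61. The ring holds its subunits in equal amounts, and the shifts of their genes on this array ran from -0.92 to -0.24.

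CDC45, which turns the loaded ring into an active helicase, had 7.72, 9.72 and 9.91 in treated wild type, whereas untreated wild type had 9.88, 9.63 and 10.02. Array 1 had a shift of -2.13 from the untreated mean, a 4.37-fold difference, while arrays 2 and 3 lay inside the untreated range. The fitted effect was -0.73 ± 0.46 (SE, adjusted p = 0.311). PSF2, a subunit of the GINS complex that joins CDC45 on the ring, had 8.68, 8.82 and 9.49 against 9.54, 9.14 and 9.56, low on both arrays 1 and 2. The firing factors had no low median on array 1. DPB11, the scaffold that joins Sld2 and Sld3 to the helicase, had 10.14, 9.62 and 9.50 with arsenate against 9.43, 9.28 and 9.31 without. All treated arrays lay above all untreated ones, and the fitted effect was 0.41 ± 0.17 (SE, 95% interval 0.04 to 0.78, adjusted p = 0.299). SLD3 and CDC7, the kinase subunit that phosphorylates the MCM ring, lay 0.20 and 0.12 above the untreated mean on array 1. SLD2 and DBF4 had shifts of -0.47 and -0.05 there. On array 2 the shifts of SLD3, CDC7, SLD2 and DBF4 were -0.22, -0.43, -0.27 and -0.09.

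Several polymerase subunits were far lower on array 1 than on its replicates. POL1, the catalytic subunit of polymerase alpha, had 8.63, 10.97 and 11.19 in treated and 11.03, 11.15 and 11.29 in untreated wild type. The shift of -2.52 on array 1 was 5.75-fold, and the fitted effect was -0.89 ± 0.53 (SE, adjusted p = 0.301). PRI2, the large primase subunit of the same complex, had 9.42, 10.00 and 10.26 against 10.16, 10.06 and 10.23. In polymerase epsilon, which copies the leading strand, the essential subunit DPB2 had 7.71, 9.76 and 10.06 against 10.08, 9.86 and 10.20, with an effect of -0.87 ± 0.48 (adjusted p = 0.299). Subunits of this complex split on array 1: DPB2, POL2 and DPB4 had shifts of -2.34, -1.71 and -1.49 from the untreated mean, and the small subunit DPB3 a shift of 0.24. In polymerase delta, which copies the lagging strand, POL32 had 8.58, 10.21 and 10.44 against 10.17, 10.33 and 10.50, an effect of -0.59 ± 0.39 (adjusted p = 0.321). Its partner POL31 had 9.48, 9.46 and 9.77 against 9.68, 9.48 and 9.72, so that the groups overlapped.

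POL30 encodes PCNA, the sliding clamp that holds polymerases on DNA, and had the largest difference of any member. Its signal was 9.07, 12.47 and 12.46 with arsenate against 12.44, 12.60 and 12.55 in untreated wild type. Array 1 had a shift of -3.45 from the untreated mean, an 11.0-fold difference, and 1.98% of all genes lay lower still, while arrays 2 and 3 lay within the untreated range. The fitted effect was -1.19 ± 0.72 (SE, 95% interval -2.80 to 0.42, adjusted p = 0.305). The 5 genes of replication factor C, the loader of this clamp, differed from POL30 in that all of them lay below every untreated array on array 2 as well as on array 1. RFC5, named after its values were seen, had 9.63, 10.34 and 10.84 against 11.10, 10.75 and 10.93, an effect of -0.65 ± 0.25 (adjusted p = 0.299). RFC5 (locus YBR087W) and POL30 (YBR088C) are direct neighbours on chromosome II in the R64 gene table, 1 of 2 such pairs among the 48 genes.

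Replication protein A coats single-stranded DNA at the fork. RFA2, its middle subunit, had 10.03, 11.30 and 11.53 in treated against 11.38, 11.49 and 11.64 in untreated wild type, an effect of -0.55 ± 0.31 (SE, adjusted p = 0.299). RFA3, the small subunit, had 10.38, 11.52 and 11.77 against 11.71, 11.73 and 11.75. For both, array 1 lay far below the others and array 2 slightly below the untreated range. CDC9, the ligase that seals Okazaki fragments, had 8.47, 9.92 and 10.24 against 10.01, 10.07 and 10.33, an effect of -0.59 ± 0.36 (adjusted p = 0.306). TOF1, a fork protection factor, had 8.51, 9.76 and 10.17 against 9.93, 9.75 and 9.99, an effect of -0.41 ± 0.34 (adjusted p = 0.401). Without arsenate array 1 the fitted TOF1 effect was 0.08.

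**Figure D4:**
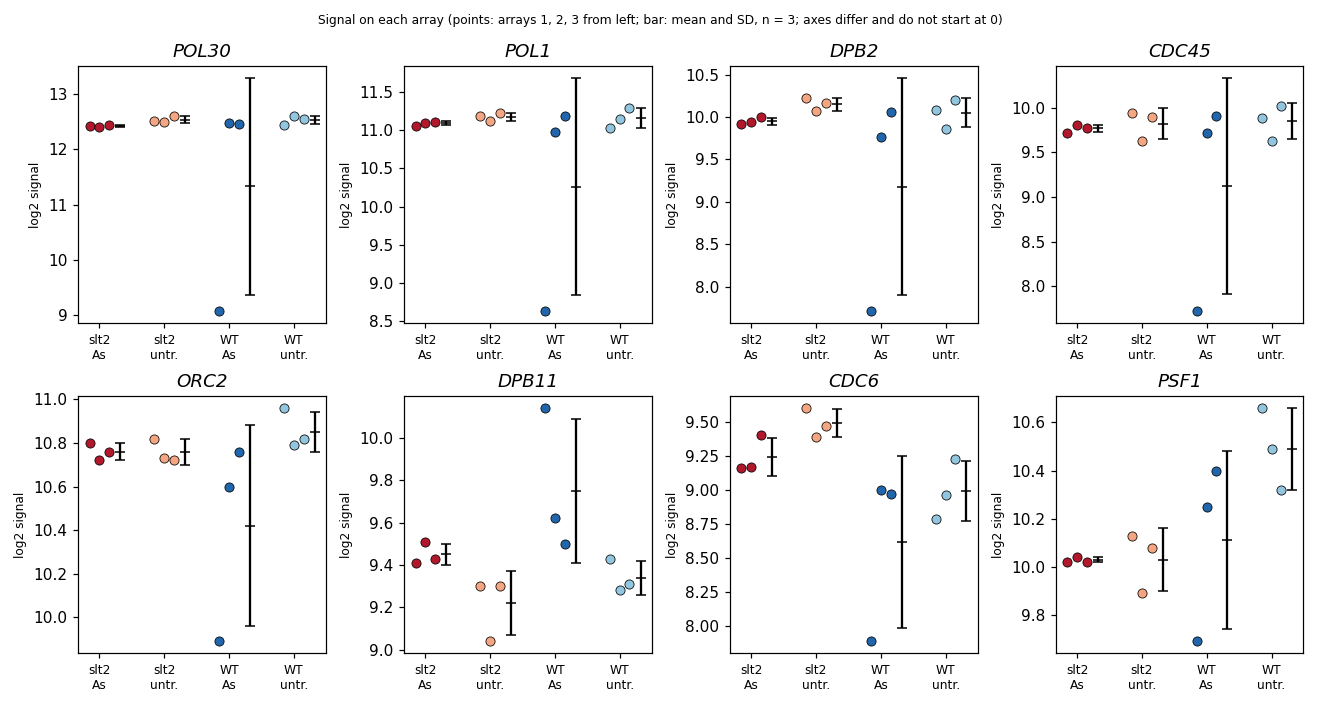
Log2 signal of POL30, POL1, DPB2, CDC45, ORC2, DPB11, CDC6 and PSF1 on each array (points, 3 per group, in the order slt2 with arsenate, slt2 untreated, wild type with arsenate, wild type untreated), with the mean and SD of each group as a bar. For POL30, POL1, DPB2 and CDC45 the wild-type arsenate mean is set by 1 array, while the slt2 points lie close together. The axes differ between genes and do not start at 0.

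In slt2 deficient cells the replicates lay much closer together, and the intervals were narrower. The median SD of the members was 0.05 in treated and 0.09 in untreated slt2 cells. In wild type it was 0.44 with arsenate, where POL30 had the highest SD, 1.96, and 0.16 without. A fit to the 6 slt2 arrays alone called 134 of all genes (2.46%) and no member. At an unadjusted p under 0.05 it held 5 members (10.4%), against 16.7% of all genes. The fit to all 12 arrays, which shares the wider wild-type spread, held 0 members and 1.3% of all genes at that level, and called 0 members and 0.0367% of all genes after adjustment. In the fit to the slt2 arrays alone, the 95% interval of the arsenate effect lay inside ±0.5 for 48 of 48 members and inside ±0.25 for 28. In the fit to all 12 arrays the intervals were wider, for POL30 from -1.73 to 1.49. Arsenate and untreated groups did not overlap for 3 members with higher signal (ORC4, ORC5 and DPB11), against 15.3% of all genes. They did not overlap for 8 members with lower signal (POL1, DPB2, DPB4, POL30, RFC2, RFC3, RFA3 and CDC9, 16.7%), against 7.27% of all genes.

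ORC5, an ATP-binding subunit of the origin recognition complex, had the smallest p among members. It had 10.16, 10.11 and 10.10 in arsenate-treated slt2 cells against 9.96, 9.92 and 9.91 in untreated ones. The groups were well apart, and the effect was 0.19 ± 0.05 (SE, 95% interval 0.09 to 0.30, adjusted p = 0.0915). In wild type the same gene had 9.57, 9.91 and 10.16 against 10.05, 9.89 and 10.13, with groups that overlapped. DPB11 had 9.41, 9.51 and 9.43 against 9.30, 9.04 and 9.30 in untreated slt2 cells, an effect of 0.23 ± 0.08 (adjusted p = 0.217). It was the only member above every untreated array of its own genotype on all arsenate arrays in both genotypes. Of all genes, 5.65% met this in wild type and 15.3% in slt2 cells, and the share that met it in both was not counted.

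DPB2 had 9.92, 9.94 and 10.00 in treated against 10.23, 10.07 and 10.17 in untreated slt2 cells, an effect of -0.20 ± 0.06 (SE, adjusted p = 0.146). CDC6 had 9.16, 9.17 and 9.40 against 9.60, 9.39 and 9.47, an effect of -0.25 ± 0.09 (adjusted p = 0.222). The highest treated CDC6 value lay just above the lowest untreated one. POL30 had 12.42, 12.41 and 12.44 against 12.52, 12.50 and 12.61, an effect of -0.12 ± 0.05 (95% interval -0.24 to -0.01, adjusted p = 0.276). All treated arrays lay below all untreated ones, by a small margin.

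Among the other genes named by role, PRI2 had 9.98, 9.98 and 10.01 in treated against 10.24, 10.01 and 10.19 in untreated slt2 cells (effect -0.15 ± 0.07, adjusted p = 0.335). POL1 had 11.05, 11.09 and 11.11 against 11.18, 11.12 and 11.22, and CDC9 had 10.22, 10.24 and 10.25 against 10.40, 10.26 and 10.49. For POL1 and CDC9 all treated arrays lay below all untreated ones, while the PRI2 groups met at 10.01. RFA3 had 11.59, 11.66 and 11.65 against 11.76, 11.68 and 11.83 (effect -0.12 ± 0.06, adjusted p = 0.341). MCM5 had 9.85, 9.76 and 9.72 against 10.06, 9.79 and 9.87, and PSF2 had 9.52, 9.36 and 9.43 against 9.61, 9.44 and 9.61, with adjusted p of 0.471 and 0.469. POL31 and TOF1 overlapped between treated and untreated slt2 cells, with effects of 0.06 ± 0.06 and -0.04 ± 0.07.

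**Figure D5:**
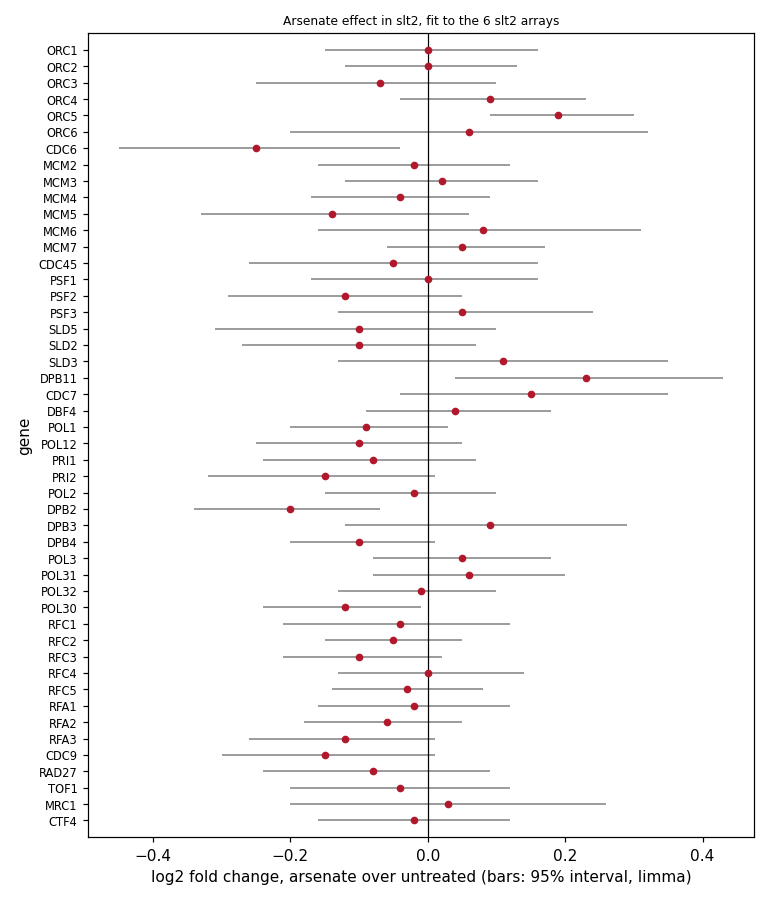
Log2 fold change of arsenate-treated over untreated slt2 cells for the 48 replication genes (rows, grouped by role), from the fit to the 6 slt2 arrays, with 95% intervals as bars. All intervals lie between -0.5 and 0.5, and those of ORC5, DPB11, DPB2, CDC6 and POL30 do not reach 0.

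Between untreated slt2 and wild-type cells the median difference over the members was 0.03 against -0.03 over all genes, and no member was called, against 0.0184% of all genes. At an unadjusted p under 0.05 there were 2 members (4.17%, against 3.76% of all genes), PSF1 and DPB3, both named after their values were seen. PSF1, a GINS subunit, had 10.13, 9.89 and 10.08 in untreated slt2 against 10.66, 10.49 and 10.32 in untreated wild type, a difference of -0.46 ± 0.18 (SE, 95% interval -0.86 to -0.06, adjusted p = 1). DPB3 had 9.81, 9.53 and 9.82 against 10.04, 9.98 and 10.01, a difference of -0.29 ± 0.12. CDC6 was on the other side, with 9.60, 9.39 and 9.47 against 8.79, 8.96 and 9.23, a difference of 0.50 ± 0.27 (adjusted p = 1). The genotypes did not overlap for 2 members with higher signal in slt2 (CDC6 and RFC2), against 8.94% of all genes, and for 3 with lower signal (PSF1, DPB3 and RFC5), against 17.9%.

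With arsenate the median difference, slt2 minus wild type, was 0.36 over the members against -0.05 over all genes. Relative to the untreated wild-type mean, the members had medians of -0.80, -0.20 and 0.06 on wild-type arsenate arrays 1, 2 and 3. On the slt2 arsenate arrays these medians were 0.0, 0.0 and 0.03. No member was called, against 0.0367% of all genes. At an unadjusted p under 0.05 there were 4 members (8.33%, against 33.0% of all genes). CDC6 had 9.16, 9.17 and 9.40 in slt2 against 7.89, 9.00 and 8.97 in wild type, a difference of 0.62 ± 0.27 (SE, 95% interval 0.02 to 1.22, adjusted p = 0.147). RFC2 had 11.53, 11.48 and 11.52 against 10.75, 10.94 and 11.46, a difference of 0.46 ± 0.17 (adjusted p = 0.142). DPB3 had 9.79, 9.86 and 9.78 against 10.25, 10.05 and 9.96, a difference of -0.28 ± 0.12 (adjusted p = 0.147). For CDC6, RFC2 and DPB3 the genotypes did not overlap in either condition, always on the same side. Of all genes, 8.94% lay higher in slt2 and 17.9% lower without overlap in untreated cells. With arsenate these shares were 16.5% and 23.6%. The share of all genes apart in both conditions was not counted, so the 3 genes cannot be set against it. The fourth gene was POL3, the catalytic subunit of polymerase delta, with a difference of 0.61 ± 0.23 (adjusted p = 0.142).

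The arsenate-treated genotypes did not overlap for 5 members with higher signal in slt2 (ORC4, CDC6, POL2, POL3 and RFC2), against 16.5% of all genes, and for 1 with lower signal (DPB3), against 23.6%. POL30 had a fitted difference of 1.09 ± 0.72 (SE, adjusted p = 0.271), which became -0.04 without wild-type arsenate array 1. The PSF1 difference of untreated cells was -0.09 with arsenate (adjusted p = 0.73). Without wild-type arsenate array 3, 17 members were called higher in slt2 (35.4%, against 20.6% of all genes) and 0 lower (22.0% of all genes), RFC1 to RFC5 and CDC6 among them. Without the 3 arrays that stood apart, which sets slt2 against wild-type arsenate array 3 alone, the median of the members was -0.08. The sources used here do not say whether RMA was run on arrays of both genotypes together, so genotype and summarisation cannot be told apart.

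The arsenate effects of the genotypes were also compared directly. The median of the difference, slt2 minus wild type, was 0.33 over the members against -0.02 over all genes. Its wild-type side includes arsenate array 1, where the members had a median shift of -0.80, against -0.20 and 0.06 on arrays 2 and 3. On slt2 arsenate arrays 1, 2 and 3 their median shifts were -0.03, -0.04 and -0.02. No member passed the test, at adjusted p of 0.711 or more, and neither did any other gene (0%), and at an unadjusted p under 0.05 there were 0 members against 0.514% of all genes. For POL30 the difference was 1.07 ± 1.02 (SE), and its 95% interval of -1.21 to 3.35 spans both no difference and a large one.

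Genes with related roles were counted beside the members. Of 24 other replication genes none was called in any of the 6 comparisons, and their median shifts on wild-type arsenate arrays 1, 2 and 3 were -0.76, -0.21 and 0.09. Those of 10 deoxynucleotide synthesis genes were -0.76, -0.10 and 0.05, and those of 7 core histone genes, whose transcripts belong to S phase, were -0.46, -0.08 and -0.07. The 12 regulators of G1 and S phase had -0.11, -0.16 and 0.21. The fit to the slt2 arrays alone called 1 gene of these lists, RNR2, a small subunit of ribonucleotide reductase, which makes deoxynucleotides. Its mean was 13.44 with arsenate against 13.07 untreated (0.37 ± 0.05 SE, adjusted p = 0.0132). For arsenate in slt2, the fit to all 12 arrays called no gene of these lists, against 0.0367% of all genes. In the fit to the slt2 arrays alone, the other lists had medians between -0.03 and 0.04. There 0 of 24, 0 of 12 and 0 of 7 genes were called, against 2.46% of all genes. In the same slt2 fit the 15 general stress genes had a median arsenate effect of 0.35, with 10 of 15 above 0. Their median shifts from the untreated slt2 mean were 0.29, 0.51 and 0.25 on slt2 arsenate arrays 1, 2 and 3. None of them was called higher, and 1 was called lower: CTT1, the cytosolic catalase, fell by 0.57 (adjusted p = 0.0158). Of the 5 marker genes of a cells, AGA2, BAR1 and MFA1 fell in the same fit, by 0.51, 0.38 and 0.61 (adjusted p = 0.0135, 0.00966 and 0.00851). The part of either list in the replication values was not tested.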

How the data were processed

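Per the submitters' processing notes, the deposited values are log2 signals per probe set made with RMA in Affymetrix Expression Console; the sources used here give no versions. RMA corrects background, makes array distributions alike and summarises probes, so changes shared by most genes are reduced. Values ran from 3.05 to 14.91 and array medians from 9.98 to 10.20. Of 5814 probe sets, 98 were controls; 5498 had 1 gene symbol, 0 had several and 316 had none. For 47 genes with more than 1 probe set, none of them a member, that of the highest mean over all arrays was kept, which left 5449 genes. No 2 arrays were identical. For arrays, their number limits the precision.

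Group means were fitted with lmFit and eBayes of limma 3.58.1, run in R 4.3.3, to all 12 arrays and, for arsenate in slt2, also to the 6 slt2 arrays. P-values were adjusted by Benjamini-Hochberg over all 5449 genes. The model was tested on simulated data. Of the members, 18 were named by rule: in each of the 12 roles, the largest absolute t in the slt2 fit and the largest absolute effect in wild type. Others were named after their values were seen. The members, lists and rules were chosen with earlier results of these data known. Alternatives changed the scaling, the probe set rule, the filter on dim genes, group weights, the arrays kept and the replicate block. Same-numbered replicates were checked by the correlation of their deviations from the group means. It ran from 0.04 to 0.47 between treated and untreated arrays of a genotype and from -0.17 to 0.31 between genotypes, and the replicates were not treated as pairs.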

Additional observations from a re-analysis of the deposited data

How the results depend on the processing

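No member was called in any comparison under most alternatives, with these exceptions. Leaving out 1 array at a time gave 0 to 10 member calls for arsenate in wild type and 0 to 17 between genotypes with arsenate, and both upper values came from leaving out wild-type arsenate array 3. A weight per group in the 12-array model gave 1 call for arsenate in slt2, ORC5 at 0.19 (adjusted p = 0.0417). In the slt2 arrays alone, centring arrays on their median gave 1 call, DPB2 at -0.24 (adjusted p = 0.0348), and quantile normalization gave 2, DPB2 at -0.24 (adjusted p = 0.0218) and PRI2 at -0.19 (adjusted p = 0.0435). The cause of these calls was not tested. With wild-type arsenate arrays 1 and 2 and untreated array 2 left out, treated wild type is array 3 alone, whose spread is assumed to be that of the other groups, and these values restate that array. There the median difference of the members between genotypes with arsenate was -0.08. Single members were followed here in wild type only where they had the largest absolute wild-type effect of their role. Among those, the same setting turned the wild-type arsenate effect positive for MCM3 (0.09), POL1 (0.03), POL32 (0.10), RFA2 (0.03), CDC9 (0.07) and TOF1 (0.21). That setting also gave -0.04 for POL30 between genotypes with arsenate. With 1 array left out at a time, the TOF1 arsenate effect in wild type ran from -0.76 to 0.08, and between genotypes with arsenate POL30 ran from -0.04 to 1.65 and PSF1 from -0.30 to 0.06. TOF1 and POL30 turned without wild-type arsenate array 1, and PSF1 without array 3. The other 216 member counts and medians under the alternatives kept the count or moved by less than the spread between replicates. For wild type that spread is wide, because the members had median shifts of -0.80, -0.20 and 0.06 on arsenate arrays 1, 2 and 3. The median arsenate effect in wild type lost most of its size without array 1 and still moved by less than this spread. For wild-type medians this rule therefore does not show that they were stable. Over all genes, the slt2 arrays alone gave 134 calls (77.6% higher with arsenate), 242 with centring (65.3% higher), 341 with quantile normalization (54.0% higher), 28 with the replicate block and 41 to 107 with 1 array left out. Leaving out wild-type arsenate array 3 gave 1608 calls for arsenate in wild type against 1, and 2324 between genotypes with arsenate against 2. With the replicate block, 0 members were called in each comparison. Analyses of promoter sequence were not run, because no sequence table was used here. With 3 arrays per group, fits that include the wild-type arrays could not resolve effects well under the spread of the wild-type replicates.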
